A study of Mus musculus with 40 samples.

Results

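Rxra and Rxrg, which encode retinoid X receptors alpha and gamma, and Pparg, which encodes the receptor partner PPARγ, accounted for 3 of the 23 regions in which methylation was measured by bisulfite amplicon sequencing of mouse liver DNA. Their CpGs were taken by position alone, and 35 of the 300 CpGs in the series fell in them, 17 in Rxra, 10 in Rxrg and 8 in Pparg. The livers came from C57BL/6 males aged 9 weeks, whose C57BL/6J dams had been fed a low fat (LF) or high fat (HF) diet and which were themselves given LF or HF after weaning. In group names the first letter is the diet of the dam and the second that of the male itself. Values were analysed for 10 LL (LF dam, LF after weaning), 9 HL (HF dam, LF after weaning), 10 LH (LF dam, HF after weaning) and 10 HH (HF dam, HF after weaning) animals. The comparisons ask whether the maternal diet (HL vs LL, HH vs LH) or the diet after weaning (LH vs LL, HH vs HL) is accompanied by a different methylation of these genes. Replicate numbers only name animals. The labels give no litter or cage, so animals of a group may be littermates. By the study's methods, the males of each cage were divided between LF and HF at weaning. Littermates may thus also stand on both sides of LH vs LL and of HH vs HL. The maternal diet was assigned to dams. The p-values over animals treat all animals as independent and unpaired. Each value is from bulk liver, in which a larger share of cells with methylated copies and more methylated copies per cell cannot be told apart.

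Retinoid X receptors are nuclear receptors that bind DNA as heterodimers. Their partners sense different ligands: PPARγ binds fatty acid derivatives and drives adipocyte differentiation and lipid storage, the liver X receptors (encoded by Nr1h3 and Nr1h2) respond to oxysterols, and PXR (Nr1i2) and CAR (Nr1i3) respond to drugs and other foreign compounds. Rxra is the main retinoid X receptor gene of the liver, whereas Rxrg is expressed chiefly in muscle and brain, and Pparg is at its highest in adipose tissue. CpGs of active or poised CpG island promoters are usually unmethylated, and CpGs outside islands are usually methylated. No marker gene of liver was measured in these tables, so the tissue label could not be checked against the data.

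The Rxra amplicon (ENSMUSG00000015846.8) spans chr2:27532251-27532434 in the mouse build NCBIM37, which is 184 bp with a GC content of 72.3% and an observed-to-expected CpG ratio of 0.716. It lies in an intron of the transcript Rxra-004 and upstream of the start of Rxra-001. The Rxrg amplicon (ENSMUSG00000015843.4) spans chr1:169548399-169548610, which is 212 bp with a GC content of 59.4% and a ratio of 0.536. It covers the start of the transcript Rxrg-004, so that Rxrg_1 and Rxrg_2 are upstream of that start and the other 8 CpGs are in its UTR, while all 10 are intronic in the longer transcripts. The Pparg amplicon (ENSMUSG00000000440.6) spans chr6:115311292-115311486 and was read from the minus strand. It has 195 bp, a GC content of 60.5% and a ratio of 0.5, with 5 CpGs in the UTR of Pparg-202 and 3 in the intron that follows. In the 1000 bp around each amplicon the ratio was 0.884 at Rxra, 0.785 at Pparg and 0.402 at Rxrg.

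Stretches around the most and the least methylated CpG of each amplicon are printed here because these levels are compared throughout, together with Rxra_7 and Rxra_15, which had the smallest p-values of Rxra in HH vs HL and in HH vs LH. Every CpG is in capitals, and the named one stands at the centre. The stretches are genomic (unconverted) sequence, on the plus strand at chr2:27532334-27532363 (Rxra_11, the highest of the tested CpGs), chr2:27532320-27532349 (Rxra_10, the lowest), chr2:27532300-27532329 (Rxra_7), chr2:27532375-27532404 (Rxra_15), chr1:169548445-169548474 (Rxrg_5, the highest) and chr1:169548479-169548508 (Rxrg_6, the lowest), and on the minus strand at chr6:115311433-115311462 (Pparg_7, the highest) and chr6:115311389-115311418 (Pparg_6, the lowest).
Rxra_11: CGgggctctcctccCGgccCGgctctcctc
Rxra_10: caatggccCGgcCGCGgggctctcctccCG
Rxra_7: tctttgtgtgtcCGCGcagacaatggccCG
Rxra_15: ccaccacCGCGggcCGcCGggtttttgggc
Rxrg_5: gctcCGgaaccaCGCGcaacagaactttgc
Rxrg_6: ttaaccagatgacaCGctgctaaaaggctt
Pparg_7: cCGagtcccctcagCGgagacccagtcacc
Pparg_6: cagaccccacaagcCGagaccccccctcac

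The depth of these amplicons differed widely. Reads summed over CpGs ranged from 1530126 to 15531697 per library. At Rxrg the CpGs had 122 to 159040 reads per animal with a median of 30249, at Pparg 102 to 3454 with a median of 393, and at Rxra 118 to 572 with a median of 222. Values at under 100 reads were absent from the tables. All 10 Rxrg CpGs had a value in all 39 animals and 14 of the 17 Rxra CpGs in 38, which let 24 CpGs pass the filter of the main tests (a value in at least 36 animals). Rxra_1, Rxra_2 and Rxra_17 had values in 21 animals and were not tested. The 8 Pparg CpGs had values in 28 or 32 animals and were tested in a wider set of 293 CpGs, for which 5 animals with a value per group were enough.

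The counts in the inner part of each amplicon were even numbers. At Rxra_3 to Rxra_16 the methylated count was even in 532 of 532 values and the total in 529. At Rxrg_6 to Rxrg_8 both were even in 117 of 117 values, and at Pparg_3 to Pparg_6 in 128 of 128. At the CpGs nearer the ends, from 46.0 to 50.9% of totals were even. Within an animal, the inner total was 2 times the end total at the median at Rxra (range 1.99 to 2, 21 animals), 2.00 times at Rxrg (2 to 2.01, 39 animals) and 2 times at Pparg (1.99 to 2.01, 28 animals). The sources used here do not say how these counts arose. If each inner fragment was counted at 2 times its number, a percentage is not altered, but the number of fragments behind it is. On that assumption the median inner depth at Rxra corresponded to 111 fragments, where 1 methylated fragment is worth 0.901 percentage points. All fragment numbers below rest on this assumption, which was not tested. The same counts bear on missing values: in the 17 animals with a value at the inner but not the end CpGs of Rxra, the inner depth was at most 198 reads.

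Rxrg was partly methylated, whereas Rxra and Pparg were close to unmethylated. The locus mean, which averages the CpGs of an amplicon in an animal, was 12.2% ± 3.62 (SD, n = 39) at Rxrg, 0.881% ± 0.329 (n = 38) at Rxra over its 14 tested CpGs and 0.765% ± 0.285 (n = 32) at Pparg. Rxrg exceeded Rxra in 38 of 38 animals, by 10.97 points on average (range 3.23 to 20.3), and Pparg in 32 of 32, by 11.5 points (range 3.70 to 25.9). Both differences had a 2-sided paired permutation p of 1e-05, the smallest that 100000 resamples can give (adjusted p = 1.5e-05 over 3 pairs). This p covers the spread between animals only, and each gene was read in its amplicon alone. Rxra and Pparg differed by 0.110 ± 0.414 points (SD, 31 animals), with Rxra higher in 16 (p = 0.149), which is within the spread between animals. The 19 loci of the main tests and Pparg were ordered from the lowest mean level, without the other loci that failed the filter. Among these 20 loci Pparg was number 5, Rxra number 9 and Rxrg number 13. The neighbours of Rxrg in that order were Lepr (6.71% ± 1.07) and Pck1 (25.7% ± 6.37), both of them farther from it than its own SD. Rxra stood between Insig2 (0.826% ± 0.106) and Ebp (1.30% ± 3.21), and Pparg between Pck2 (0.754% ± 0.150) and Nfkb2 (0.772% ± 0.106). Rxra differed from Insig2, and Pparg from both of its neighbours, by less than its own SD over animals, and Rxra differed from Ebp by less than the SD of Ebp.

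The partners of the retinoid X receptors spanned the whole scale. Nr1h2 was at 0.687% ± 0.105 (n = 39) and Nr1h3 at 1.57% ± 0.438 (n = 38), the same order of magnitude as Rxra and Pparg. Nr1i3 lay between 24.8 and 42.6% (SD 3.78, n = 39) and Nr1i2 at 94.3% ± 0.509 (n = 38), both above the mean of Rxrg. Cytosines that escape conversion are read as methylated. The mean of the 8 other loci under 2%, without Ebp, lay between 0.656 and 1.02% per animal, the same size as the means of Rxra and Pparg, and at these loci methylation and unconverted cytosine cannot be told apart.

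Methylation of Rxrg ranged in LL animals from 9.24 to 15.2% (median 11.2%), in HL animals from 9.13 to 14.4% (median 11.1%), in LH animals from 4.49 to 27.0% (median 13.9%) and in HH animals from 9.47 to 14.5% (median 12.5%). Values of LL, HL and HH covered much the same range, and LH animals lay on both sides of it. The group means were 11.4% ± 1.88 (SD) in LL, 11.3% ± 1.86 in HL, 14.2% ± 6.36 in LH and 12.0% ± 1.52 in HH.

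Rxra ranged from 0.409 to 1.81% in LL (median 0.846%), from 0.424 to 1.31% in HL (median 0.714%), from 0.578 to 1.45% in LH (median 0.816%) and from 0.201 to 1.41% in HH (median 0.876%). The 4 groups overlapped over most of their range. Their means were 0.863% ± 0.376 (n = 10) in LL, 0.827% ± 0.307 (n = 9) in HL, 0.936% ± 0.326 (n = 9) in LH and 0.899% ± 0.345 (n = 10) in HH.

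Pparg ranged from 0.457 to 1.27% in LL (median 0.809%, n = 8), from 0.315 to 1.37% in HL (median 0.685%, n = 7), from 0 to 1.08% in LH (median 0.749%, n = 10) and from 0.665 to 1.03% in HH (median 0.887%, n = 7). The groups overlapped, and the HH animals were the closest together (SD 0.139, against 0.242 in LL, 0.344 in HL and 0.351 in LH). The median depth was 1330 reads in HH against 300 to 360 in the other groups. In 4 animals outside HH the Pparg locus mean averages only the 4 inner CpGs. They are LL replicate 10, HL replicates 4 and 10 and LH replicate 10. Among them are the lowest LH value (0 methylated of 776 reads) and the highest HL value (1.37%). The part of depth and of these missing CpGs in the smaller spread of HH was not tested.

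**Figure D1:**
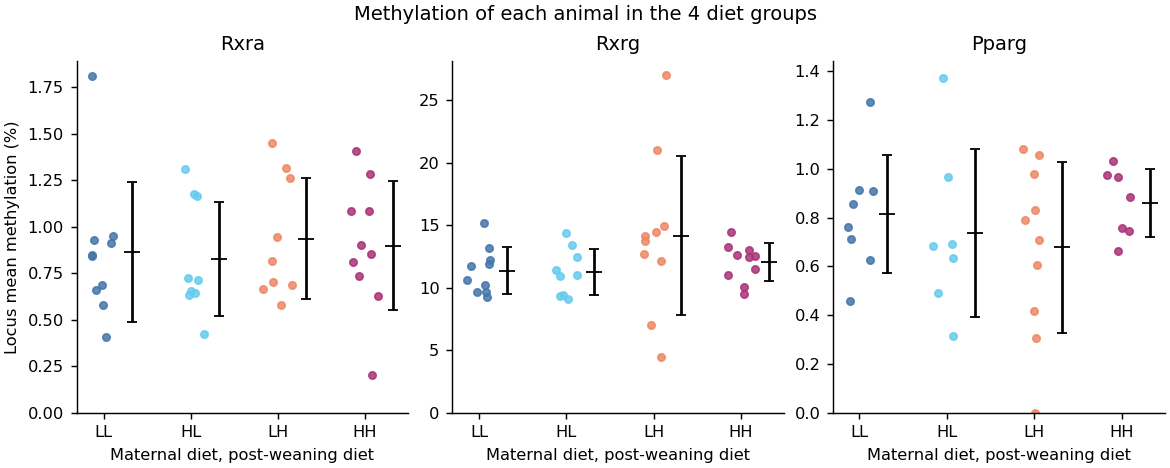
Locus mean methylation in percent (vertical axes, which differ between panels) of Rxra, Rxrg and Pparg in each animal (points) of the 4 diet groups, with the group mean and SD beside them. The groups overlap in every panel, and the LH animals of Rxrg spread from 4.49 to 27.0%.

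At Rxrg 4 of the 10 LH animals lay outside the range of all other groups. The 29 animals of the other groups lay between 9.13 and 15.2%, with 2 LH animals above this range and 2 below it. LH replicate 8 had 27.0% at a median of 123 reads, LH replicate 2 had 21.0% at 31917 reads, LH replicate 1 had 7.0% at 15650 reads and LH replicate 6 had 4.49% at 399 reads. The highest and the lowest animal were the least covered at this locus, while LH replicates 1 and 2 were covered like the rest, in which the lowest median was 11864 reads. HH replicate 10, at 505 reads, had 11.1%. At Rxrg_5 the 95% Wilson interval of LH replicate 8 was 23.4 to 39.5% (38 of 123 reads methylated), that of LH replicate 6 was 3.88 to 8.52% (23 of 398), that of LH replicate 2 was 24.5 to 25.5% and that of LH replicate 1 was 8.23 to 9.11%. These intervals cover counting error only, since PCR reads without molecular identifiers are not independent molecules. Without LH replicates 6 and 8, the LH mean was 13.8% ± 3.86 (n = 8).

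The SD of LH at Rxrg was 3.39 times the highest SD of the other groups, and the corresponding ratio at the other 18 tested loci was at most 1.36, at Nr1i3. This ratio was taken for LH only, and other groups stood out elsewhere. At Ebp the SD was 6.33 in HH, against 0.0945 in LL, 0.132 in HL and 0.278 in LH. Without LH replicates 6 and 8, the SD of LH at Rxrg was 3.86, against 1.88 in LL. The difference in spread was not tested, since it was noticed in these values. LH replicate 8 had no Rxra value, and its Pparg level of 1.08% was the highest of LH. At the 8 other loci with a mean of at least 2%, the rank among LH animals (1 for the lowest) was 2 to 6 for LH replicate 1, 1 to 10 for LH replicate 2, 2 to 9 for LH replicate 6 and 2 to 9 for LH replicate 8. LH replicate 2 was the highest LH animal at Lep (72.96%) and the lowest at Nr1i2.

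**Figure D2:**
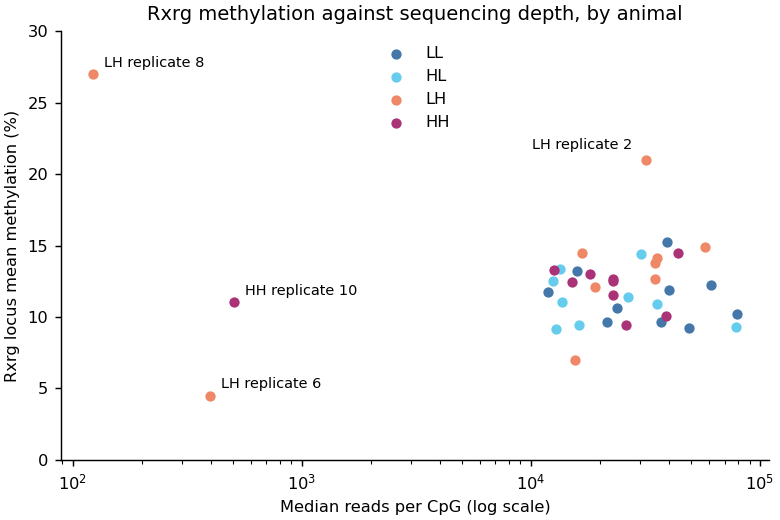
Rxrg locus mean methylation in percent (vertical axis) against the median reads per CpG (horizontal axis, log scale) for the 39 animals, coloured by diet group. The highest and the lowest animal have 123 and 399 reads, and LH replicate 2 reaches 21.0% at 31917 reads.

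No difference in mean Rxrg methylation between diet groups had an adjusted p under 0.05, and every 95% interval included 0. The intervals of the comparisons with LH were wide and leave differences of several points possible. HL minus LL was -0.0838 points (95% interval -1.91 to 1.72, exact permutation p = 0.925, adjusted p = 0.925), with 5 of 9 HL animals under the LL median. HH minus LH was -2.11 points (-6.44 to 2.07, p = 0.321 with 10 animals in each group, adjusted p = 0.690), with 9 of 10 HH animals under the LH median. LH minus LL was 2.79 points (-1.46 to 7.18, p = 0.199 with 10 animals in each group, adjusted p = 0.541), with 8 of 10 LH animals above the LL median. HH minus HL was 0.766 points (-0.888 to 2.41, exact permutation p = 0.330, adjusted p = 0.708), with 8 of 10 HH animals above the HL median. With at least 1000 reads, which removed LH replicates 6 and 8 and HH replicate 10, the values were -1.99 points for HH vs LH and 2.40 points for LH vs LL. Leaving out LH replicate 8 alone gave -0.683 and 1.37 points, and without LH replicate 2 they were -1.35 and 2.03 points. Leaving out LH replicate 6 alone gave -3.19 and 3.87 points, the latter with an unadjusted exact permutation p = 0.0496 and an adjusted p = 0.302.

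At Rxra the 4 differences were small against the spread. They were -0.0365 points for HL vs LL (-0.373 to 0.281, exact permutation p = 0.839), -0.0372 for HH vs LH (-0.365 to 0.287, p = 0.813 by the same exact test), 0.0731 for LH vs LL (-0.272 to 0.400, exact p = 0.661) and 0.0724 for HH vs HL (-0.248 to 0.388, exact p = 0.633). The lowest adjusted p was 0.708. At Pparg they were -0.0771 points for HL vs LL (-0.406 to 0.252, exact p = 0.619), 0.184 for HH vs LH (-0.0991 to 0.485, exact p = 0.211), -0.136 for LH vs LL (-0.448 to 0.168, exact p = 0.372) and 0.125 for HH vs HL (-0.184 to 0.414, exact p = 0.399). The lowest adjusted p was 0.694. No interval at either locus reached 0.5 points, and the levels themselves were under 1% on average. Single animals moved these small differences. Without HL replicate 10, HH minus HL at Pparg was 0.231 points (exact p = 0.0396, adjusted p = 0.228), and without HL replicate 2 it was 0.0549 points. HL replicate 10 had values at the 4 inner Pparg CpGs only.

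Thus 0 of the 3 locus means passed the adjusted threshold, or an unadjusted p under 0.05, in any of the 4 comparisons. Of the 19 loci tested with Rxra and Rxrg, the adjusted threshold was passed by 0% in HL vs LL, HH vs LH and LH vs LL and by 5.26% (1 locus) in HH vs HL, and the unadjusted one by 10.5%, 0%, 5.26% and 15.8% in HL vs LL, HH vs LH, LH vs LL and HH vs HL. Of the 22 loci tested with Pparg, the adjusted threshold was passed by 9.09% (2 loci) in HH vs HL and by 0% in the other comparisons, and the unadjusted one by 9.09%, 4.55%, 9.09% and 18.2% in the same order.

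**Figure D3:**
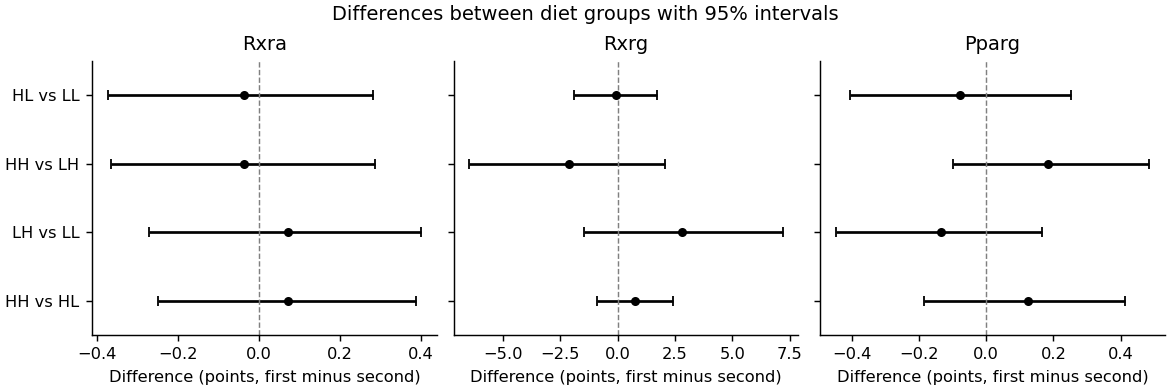
Difference in locus mean methylation (horizontal axes, percentage points, first group minus second, scales differ) in the 4 comparisons with 95% intervals from the exact permutation test. Every interval includes 0, and those of Rxrg in the comparisons with LH are the widest.

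The maternal term, the post-weaning term and their interaction were tested by permutation over all 4 groups. At Rxrg the maternal term was -1.13 points (p = 0.351), the post-weaning term 1.81 points (p = 0.125) and the interaction -2.03 points (p = 0.395). At Rxra they were -0.0369 (p = 0.738), 0.0728 (p = 0.510) and -0.00066 points (p = 0.998), and at Pparg 0.0596 (p = 0.574), -0.0207 (p = 0.844) and 0.261 points (p = 0.217). None of these 9 values had an unadjusted permutation p under 0.05. Of the 19 loci, 10.5% had one for the maternal term, 10.5% for the post-weaning term and 5.26% for the interaction. These 19 include Rxra and Rxrg but not Pparg, for which no share over loci was computed. Adjusted over the 19 loci, the lower permutation p of Rxra and Rxrg was 0.682 for the maternal term, 0.395 for the post-weaning term and 0.701 for the interaction, each time that of Rxrg. The adjusted threshold was passed by 0% of loci for the maternal term and the interaction and by 5.26% for the post-weaning term.

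No CpG of the 3 genes passed the adjusted threshold of 0.05 in any pairwise comparison (0 of 24 Rxra and Rxrg CpGs and 0 of 8 Pparg CpGs), where the share over all CpGs tested was 0% in both sets. In HL vs LL, 0 of the 24 had an unadjusted p under 0.05, against 14.6% of the 253 CpGs of the series. In HH vs LH it was 1, against 2.77%, in LH vs LL 0, against 7.91%, and in HH vs HL 1, against 12.6%. Of the 8 Pparg CpGs, 0 had such a p in HL vs LL and HH vs LH, against 12.6% and 2.39% of the wider set, and 1 each in LH vs LL and HH vs HL, against 7.85% and 13%. The Rxrg CpGs mostly differed in the same direction, none past the adjusted threshold. Their mean was lower at 7 of 10 in HL than in LL and at 10 of 10 in HH than in LH, and higher at 10 of 10 in LH than in LL and at 10 of 10 in HH than in HL. They lie on the same reads and are not independent.

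The CpG with the smallest p of the 3 genes was Rxra_7 in HH vs HL. It ranged from 0.885 to 5.13% in HH (median 2.17%) and from 0 to 2.90% in HL (median 0.743%), and the groups overlapped, although 10 of 10 HH values exceeded the median of HL. The means were 2.35% ± 1.38 (n = 10) and 0.971% ± 0.908 (n = 9), a difference of 1.38 points (0.261 to 2.54, exact permutation p = 0.0172, adjusted p = 0.336, range over the alternatives 0.129 to 0.521). These rest on 58 methylated of 2386 reads in HH and 22 of 2304 in HL. The fragments are fewer if each was counted at 2 times its number. In LL, Rxra_7 was at 1.92% ± 2.39 and in LH at 1.18% ± 1.69, with 1 LL animal at 8.11%.

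In HH vs LH the smallest p was at Rxra_15. It ranged from 0 to 1.41% in HH (median 0.631%) and from 0 to 8.46% in LH (median 1.04%), with most animals of both groups at low values. The means were 0.548% ± 0.519 (n = 10) and 2.17% ± 2.75 (n = 9), a difference of -1.62 points (-3.43 to -0.00259, exact permutation p = 0.0486, adjusted p = 0.859, range over the alternatives 0.521 to 0.990), from 12 and 64 methylated reads. Without LH replicate 10 the difference was -0.837 points (exact p = 0.103). Over all animals left out in turn the exact p ranged from 0.0168 to 0.103, and the Wilcoxon test, enumerated exactly, gave p = 0.0919. At the other smallest p-values, Rxra_10 differed by -0.414 points in HL vs LL (exact p = 0.0648, adjusted p = 0.420) and Rxra_8 by 0.433 points in LH vs LL (exact p = 0.142, adjusted p = 0.746).

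At Rxrg the smallest p-values belonged to Rxrg_8 in HL vs LL (0.997 points, exact p = 0.245) and in LH vs LL (3.12 points, p = 0.0883), Rxrg_9 in HH vs LH (-2.69 points, p = 0.220) and Rxrg_2 in HH vs HL (1.31 points, exact p = 0.106). All 4 had an adjusted p of 0.545 or above.

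Pparg_1 had the smallest p of Pparg in LH vs LL. It ranged from 0.210 to 1.91% in LL (median 1.45%) and from 0 to 1.23% in LH (median 0.687%), so that the groups overlapped, with 9 of 9 LH values under the LL median. The means were 0.591% ± 0.457 (n = 9) in LH and 1.29% ± 0.592 (n = 7) in LL (exact p = 0.0206, adjusted p = 0.613, range over the alternatives 0.343 to 0.731). Pparg_8 had the smallest p in HH vs HL, with a range of 0.240 to 2.73% in HH (median 1.17%) and of 0 to 0.607% in HL (median 0.422%). Here 6 of 7 HH values lay above the HL median, and the lowest HH value lay within the HL range. The means were 1.28% ± 0.849 (n = 7) and 0.315% ± 0.295 (n = 5), with exact p = 0.0227 and adjusted p = 0.339 (range over the alternatives 0.181 to 0.697). Without HL replicate 2 or HL replicate 5 the exact p was 0.0545. The HL value of Pparg_8 rests on 5 methylated of 1735 reads. Pparg_8 also had the smallest p in HH vs LH (0.655 points, exact p = 0.0540, adjusted p = 0.900) and in HL vs LL (-0.554 points, exact p = 0.0758, adjusted p = 0.541).

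Over both diets together, 0 of the 24 CpGs passed for any term, where the share over all tested CpGs was 0% for the maternal term and the interaction and 1.19% for the post-weaning term. At an unadjusted p under 0.05 there were 2 for the maternal term, against 12.6% of all tested, 1 for the post-weaning term, against 10.7%, and 0 for the interaction, against 6.72%. For the maternal term these were Rxra_15 (-1.12 points, permutation p = 0.0230, adjusted p = 0.306) and Rxra_10 (-0.355 points, permutation p = 0.0283, adjusted p = 0.341). For the post-weaning term it was Rxrg_7 (2.12 points, permutation p = 0.0459, adjusted p = 0.460). The smallest interaction p was at Rxra_7 (2.13 points, permutation p = 0.0575, adjusted p = 0.694).

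The RXR partners were likewise without a call. Of the 17 Nr1h2, 12 Nr1h3, 5 Nr1i2 and 4 Nr1i3 CpGs tested, 0 passed the adjusted threshold in the 4 comparisons. At an unadjusted p under 0.05 there were 3 of the 38 in HL vs LL (2 in Nr1h2, 1 in Nr1h3), against 14.6% of all 253 CpGs tested. There was 1 in HH vs LH (Nr1h2), against 2.77%, and there were 3 in LH vs LL (2 in Nr1h2, 1 in Nr1h3), against 7.91%, and 3 in HH vs HL (2 in Nr1h2, 1 in Nr1h3), against 12.6%.

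Along the Rxrg amplicon, methylation was lowest at the 3 CpGs in the middle. The levels over all animals ran from 9.57% ± 2.74 at Rxrg_6 to 14.5% ± 4.11 at Rxrg_5. The mean of Rxrg_6 to Rxrg_8 was 9.79%, against 13.3% at the other 7 CpGs, a difference of -3.49 ± 1.22 points (SD) with the same sign in 39 of 39 animals. This was noticed in the values and is given without a test. The same 3 CpGs are those with even counts and a depth 2.00 times that of the others, and the part of this counting in the lower level was not tested. At the inner CpGs of Rxra, whose counts were almost all even too, the level was lower than at the ends in 10 of 21 animals. The means were 0.899% and 0.970% (difference -0.0711 ± 0.765 points). At Pparg the inner level was lower in 18 of 28 animals, with means of 0.699% and 0.851% (-0.151 ± 0.387 points). At such low levels a difference in points cannot be set against that of Rxrg.

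**Figure D4:**
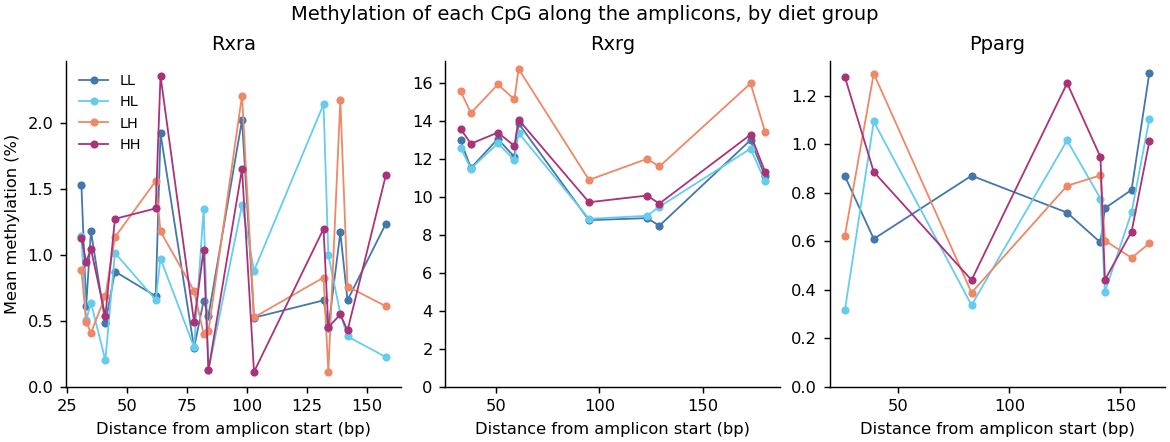
Mean methylation in percent of each CpG (vertical axes, which differ between panels) against its distance in bp from the start of the amplicon, by diet group. The Rxrg lines share a dip at its 3 middle CpGs, with LH above the others and the lines of LL and HL crossing. The lines of Rxra and Pparg cross as well.

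The CpGs of Rxrg ranked the animals alike, whereas the correlations among those of Rxra and Pparg had a median near 0. Over the 45 pairs of Rxrg CpGs, Spearman's rho across animals was between 0.835 and 0.969 (median 0.898). Over the 91 pairs of Rxra CpGs its median was 0.0004 (range -0.239 to 0.495), and over the 28 pairs of Pparg CpGs it was 0.058 (-0.315 to 0.455). Rxra and Pparg had far fewer reads than Rxrg, and the part of depth in this contrast was not tested. These correlations are descriptions, since CpGs of an amplicon share reads. With inner depths reduced on the assumption given above, the variance between animals was 23.7 to 45.6 times the binomial variance at the Rxrg CpGs. It was 0.716 to 3.78 times (median 2.02) at the 14 Rxra CpGs and 0.882 to 1.46 times (median 1.04) at the Pparg CpGs. The binomial variance takes each fragment as an independent molecule, which PCR products are not.

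Among the tested Rxra CpGs, levels ran from 0.304% at Rxra_10 to 1.81% at Rxra_11. No methylated read was found in 256 of the 595 values of the 17 Rxra CpGs. On the assumption about inner counts, this allows a level of up to 1.05% at the best and 5.08% at the least covered value (3 fragments of 286 and of 59). At Pparg, levels ran from 0.508% at Pparg_6 to 0.984% at Pparg_7, with 46 of 240 values at 0. On the same assumption, this allows up to 0.429% at the best and 5.88% at the least covered value.

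Of 9 relations of the 3 genes across animals (with each other, with the other loci under 2% and with depth), none passed adjustment, by Pearson's r or by Spearman's rho. The relation with the smallest p was Rxra with Rxrg (Pearson's r = -0.243, permutation p = 0.141, adjusted p = 0.742, Spearman's rho = -0.180, permutation p = 0.282, adjusted p = 0.823, n = 38), and r was -0.275 without the 2 animals farthest from the median. Rxrg with the log10 of its own depth gave r = -0.217 (permutation p = 0.165, adjusted p = 0.742, Spearman's rho = 0.0328, permutation p = 0.843, adjusted p = 0.949, n = 39), which changed sign to 0.0866 without LH replicates 6 and 8 and so rested on them. As a description over 38 or 39 animals, the loci whose levels ran most like Rxra were Peg3 (rho = 0.533), Nr1h2 (0.290) and Ebp (0.276), and those most like Rxrg were Nr1i3 (0.343), Lepr (0.327) and Pck1 (0.263).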

How the data were processed

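Liver DNA of each male was bisulfite treated, locus-specific PCR products were pooled per animal, barcoded and sequenced. The authors called methylation with Bismark (version not given in the sources used here) on mm9, per the submitters' processing notes, and deposited a count of methylated reads and a count of total reads per CpG and animal, together with the methylated fraction of reads. The deposited fraction equalled the ratio of the deposited counts in 11071 values. The lowest deposited total was 100 reads, and totals over CpGs were 1530126 to 15531697 reads per library. Values were analysed for 39 of 40 animals, HL replicate 1 was not analysed here, and 0 columns were left unused. No library was a duplicate of another (mean absolute difference per CpG at least 0.807 points). Coordinates and annotation are from NCBIM37 with GENCODE M1, in which all 300 positions are CpG cytosines, and amplicon ends come from matching the study's primers to the converted genome.

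Methylation was 100 times methylated over total reads. CpGs within 1000 bp formed a locus. The test set held the 253 CpGs (19 loci) that 36 or more animals covered by 10 or more reads, with a wider set (at least 5 animals of each group, 293 CpGs, 22 loci) for Pparg. Groups of 10 against 10 values were compared by Student's t-test, and all others by an exact permutation test (the smaller tail doubled). In the wider set the exact test was used throughout. All tests are 2-sided, with Benjamini-Hochberg adjustment over the whole table within a comparison at 0.05. Intervals (95%) invert the exact permutation test. Terms, paired differences and correlations used 100000 resamples. The tests were tested on simulated data. Alternatives were the Wilcoxon test, exact tests throughout, log2((methylated + 1)/(unmethylated + 1)), at least 1000 reads, a value in every animal, adjustment over all 4 comparisons, pooled reads, the F test, centring on group means and leaving out each animal; the 7 outer Rxrg CpGs, the low loci without Ebp and Rxrg without 2 LH animals were chosen after seeing the data. Named CpGs are those with the highest and lowest level of a locus, or the smallest p in a comparison or term. The members, lists and tests were chosen with earlier results of these data known. Tests ran in scipy 1.17.1 with numpy 2.4.6 and pandas 2.3.3, and plots in matplotlib 3.10.9, under Python 3.11.15.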

Additional observations from a re-analysis of the deposited data

Results flagged for a closer look

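Dixon's test compares the gap between an outermost animal and the next one with the range of the group. In 12 groups of values (3 loci in 4 diet groups), it flagged 1 animal. By chance about 1 in 20 groups is flagged. The animal was LL replicate 10 at Rxra, at 1.81% and a depth of 222 reads per CpG. Its value rests on 56 methylated of 3102 reads over the 14 tested CpGs. Several outlying animals widen the range, so the test can miss them. Rxrg in LH was not flagged (gap over range 0.266 for the highest and 0.111 for the lowest animal, critical value 0.466). No interaction of the diets passed the adjusted threshold at Rxra or Rxrg. At Pparg only the locus mean was tested for it, without adjustment (permutation p = 0.217).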

How the results depend on the processing

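No paired analysis was possible because the labels give no litter, cage or replicate number shared between groups, and replicate numbers here only name animals. Under every alternative 0 Rxra, Rxrg and Pparg locus means and 0 named CpGs passed the adjusted threshold, against 5.26% of 19 loci (9.09% of 22 in the wider set) in HH vs HL as reported, the smallest adjusted p being 0.129 (Rxra_7 in HH vs HL without HL replicate 2). On the log2 scale, Rxra in HL vs LL turned to 0.0485 and Pparg in HH vs HL to -0.12. With reads pooled over the locus, Rxrg in HL vs LL turned to 0.0272 points. The cause was not tested. The count of Rxra and Rxrg CpGs at an unadjusted p under 0.05 was 2 of 24 on the log2 scale in HH vs LH. With at least 1000 reads, where no Rxra CpG remained, it was 0 in HH vs LH, 2 in LH vs LL and 0 in HH vs HL. Where a value in every animal was required, which also leaves out Rxra, it was 0 in HH vs LH and HH vs HL. In both settings only the 10 Rxrg CpGs were counted. The share over all tested CpGs was not computed for these alternatives, so the counts cannot be set against a background. The correlation of Rxrg with Pparg turned to 0.0360 and that of Pparg with the other loci under 2% to -0.0225 when centred on group means. Without Ebp (chosen after the data were seen) the correlations with those loci were -0.180 for Rxrg and -0.179 for Pparg.

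Leaving out 1 animal at a time, the Rxra difference ranged from -0.0969 to 0.0688 points in HL vs LL (positive without LL replicate 10 or HL replicate 7) and from -0.0938 to 0.0404 points in HH vs LH (positive without LH replicates 1, 6 or 10 or HH replicate 10). The Rxrg difference in HL vs LL ranged from -0.473 to 0.344 points (positive without LL replicates 4, 6 or 9 or HL replicates 3, 7 or 10). The other differences kept their sign: Rxra LH vs LL 0.00854 to 0.178 and HH vs HL 0.0158 to 0.150 points, Rxrg HH vs HL 0.498 to 1.16 points, and Pparg HL vs LL -0.183 to -0.00692, HH vs LH 0.108 to 0.228, LH vs LL -0.187 to -0.0603 and HH vs HL 0.0549 to 0.231 points, while the Rxrg comparisons with LH are given above by animal. The Pparg limits came without HL replicate 10 and HL replicate 2 in HL vs LL and HH vs HL, and the values nearest 0 in HH vs LH and LH vs LL without LH replicate 10. The count of Rxra and Rxrg CpGs at an unadjusted p under 0.05 ranged from 0 to 1 in HL vs LL (1 without LL replicates 1, 4, 6, 7 or 10 or HL replicate 6), from 0 to 1 in HH vs LH (0 without LH replicates 3, 5 or 10 or HH replicates 1, 2, 4, 5, 8 or 10), from 0 to 4 in LH vs LL (4 without LH replicate 6 and 2 without LH replicate 1) and from 1 to 2 in HH vs HL (2 without HL replicate 4 or HL replicate 6). These counts are out of 24 CpGs. The share over all tested CpGs was not computed with an animal left out, so they cannot be set against a background. A minimum of 100 reads changes nothing, since no deposited value is lower. Depth limits Rxra and Pparg. If inner fragments were counted at 2 times their number, 1 fragment is worth 0.901 points at Rxra and 0.413 points at Pparg.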
